A study of Mus musculus with 12 samples.

Results

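The 10 genes described here encode structural proteins of the Z-disc and of intermediate filaments, which for Vim are mainly those of cells other than adult fibres. They are Des, Vim, Flnc, Ldb3, Ttn, Neb, Myot, Actn2, Actn3 and Myoz1. They were taken by symbol from the 22923 distinct gene symbols in the expression values, and all 10 were among the 11945 genes that passed the filter on low values (at least 1 in at least 3 libraries on the FPKM scale, fragments per kilobase of transcript scaled to library size). RNA came from proximal hind limb skeletal muscle of 12 male mice, aged 22 weeks and named FVB in the labels and FVB/N in the study's methods, with 3 mice in each of 4 groups. The WT groups are the littermates titled Flox, and the KO groups lack both αB-crystallin (Cryab) and HspB2 in every tissue. One group of each genotype ate normal chow with 3.1 kcal per gram, and the other ate a high fat diet from 6 weeks of age for 16 weeks, with 60% of kcal from fat and 5.1 kcal per gram. Because the deletion is global and covers a pair of neighbouring genes, it cannot separate muscle from other tissues or one gene from the other.

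The Z-disc is the protein lattice at each end of the sarcomere, where α-actinin crosslinks the actin filaments of neighbouring sarcomeres. Titin is anchored there and spans to the M-band, nebulin runs along the thin filament, and desmin filaments tie Z-discs of adjacent myofibrils to each other and to the membrane. αB-crystallin is a small heat shock protein known to bind desmin and other filament proteins in stressed muscle, and mutations in its gene and in several of the genes described here cause myofibrillar myopathies. The comparisons ask whether the transcripts of these structures differed without the chaperones or with the diet.

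Promoter sequences are shown for 4 of the genes as examples, and none of the differences they were picked for passed the adjusted test. Des and Flnc did not overlap between genotypes on the high fat diet, Vim had the largest genotype difference of the 10 over both diets, and Actn2 the largest diet difference. Each run is a RefSeq window on GRCm38.p6, 250 bases before to 50 bases after an annotated start, printed 5′ to 3′ on the gene's own strand. Capitals mark matches to the E-box CANNTG, the letters bound by MyoD family factors, and to the TATA box TATAAA.
Des, chr1:75360042-75360341, plus strand: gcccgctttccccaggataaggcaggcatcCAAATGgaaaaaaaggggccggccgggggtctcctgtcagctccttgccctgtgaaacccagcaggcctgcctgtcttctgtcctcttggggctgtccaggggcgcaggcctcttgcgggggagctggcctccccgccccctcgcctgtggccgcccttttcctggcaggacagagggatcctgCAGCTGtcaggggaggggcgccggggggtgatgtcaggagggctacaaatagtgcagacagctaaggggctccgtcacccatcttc
Vim, chr2:13574061-13574360, plus strand: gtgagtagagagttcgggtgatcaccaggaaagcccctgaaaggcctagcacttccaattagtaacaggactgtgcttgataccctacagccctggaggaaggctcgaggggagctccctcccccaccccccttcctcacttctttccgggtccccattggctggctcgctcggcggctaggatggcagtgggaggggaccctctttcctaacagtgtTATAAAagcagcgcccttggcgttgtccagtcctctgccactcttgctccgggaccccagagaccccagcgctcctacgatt
Flnc, chr6:29433006-29433305, plus strand: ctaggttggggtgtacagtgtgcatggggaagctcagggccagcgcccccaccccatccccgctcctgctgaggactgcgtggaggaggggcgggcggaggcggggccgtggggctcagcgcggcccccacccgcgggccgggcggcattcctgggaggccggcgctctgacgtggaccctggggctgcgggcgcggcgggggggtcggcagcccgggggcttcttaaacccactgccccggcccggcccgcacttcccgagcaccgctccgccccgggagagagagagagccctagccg
Actn2, chr13:12340683-12340982, minus strand: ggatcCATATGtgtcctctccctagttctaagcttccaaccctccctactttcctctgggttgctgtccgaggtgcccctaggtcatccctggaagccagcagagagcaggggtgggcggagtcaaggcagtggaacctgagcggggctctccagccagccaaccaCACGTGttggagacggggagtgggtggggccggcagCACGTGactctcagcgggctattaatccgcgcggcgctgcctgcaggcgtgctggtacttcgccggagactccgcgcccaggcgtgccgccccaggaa
The windows differ in these letters. The Des window holds 2 E-box matches, the Actn2 window 3, and the Flnc and Vim windows 0, where 72.3% of 32851 mouse promoter windows of 300 bases hold at least 1. Vim alone of the 4 has a TATAAA match, which 13.6% of all windows have. GC boxes (GGGCGG) number 4 in Flnc, 2 in Des, 2 in Actn2 and 0 in Vim, against 35.7% of all windows with at least 1. All motifs were searched on both strands. The E-box pattern reads the same on either strand, no match of one motif overlaps a match of another motif in these 4 windows, and 2 of the GC boxes in Flnc overlap each other. RefSeq windows were also found for Ldb3 and Ttn, so that 6 of the 10 genes matched. Both Ldb3 windows hold a CArG box, which 1.63% of all windows hold, and the Ttn window holds 1 E-box and a MEF2 site, which 3.19% hold. Neb, Myot, Actn3 and Myoz1 are named only.

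In every KO library the deleted genes were near the bottom of the scale. Cryab lay between 412 and 837 FPKM in the 6 WT libraries and between 0.845 and 1.75 in the 6 KO libraries, and Hspb2 between 81.5 and 103 against 0.353 and 1.92. For 6 samples GEO's genotype entry and the title name different genotypes. Cryab and Hspb2 follow the titles, which define the groups here. The chow libraries WT-chow 2, KO-chow 1 and KO-chow 3 stood apart from the others. The summed level of 8 lymphoid markers was 78.1 to 90.8 FPKM in these 3 and 0.693 to 6.69 in the other 9, with 5 of the 8 markers listed at 0 in at least 1 of the 12 libraries. Their summed fast fibre markers were 49605 to 64785 FPKM against 71486 to 91647. Leaving out the 3 libraries, as is done beside some results below, leaves KO chow with KO-chow 2 alone and WT chow with 2 libraries (for Ldb3 with 1), so such values rest on a single KO chow mouse. Muscle fibre markers were high in every library, except that Myh4, the fastest adult myosin heavy chain, is listed at 0 in all 12 and Acta1, skeletal muscle actin, in 2 of 12. Such zeros in abundant genes look like failed estimates. They were left missing where the gene's median was at least 10 FPKM. Myh4, with a median of 0, was not left missing and adds nothing to the fast fibre sums above. Among the 10 genes the value left missing is that of Ldb3 in WT-chow 1.

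Measured per length of transcript, the genes covered a wide span of levels. The fast fibre α-actinin Actn3 had the highest median over the 12 libraries, 2875 FPKM, followed by Des at 2246 and Myoz1 at 1913. Ldb3 came next with 966 FPKM over 11 libraries, then Myot with 573 and Actn2 with 364. Vim at 179, Neb at 175, Ttn at 98.1 and Flnc at 86.7 FPKM were the lowest. Within a library this order was mostly kept. Actn3 exceeded Des in 10 of 12 libraries and Ttn exceeded Flnc in 10 of 12. Vim and Neb could not be ordered, since Vim was the higher of the pair in 7 of 12. Every other neighbour kept its place in all libraries compared, although the ranges across mice overlapped for Des and Myoz1, Ldb3 and Myot, and Actn2 and Vim. Des, Ttn and Neb share bases with antisense or small genes on the other strand (Gm15179 for Des, Gm13938 for Ttn, Gm22095 and Gm13522 for Neb), and Neb with the pseudogene Gm13521. The library kit does not mark strand, so reads from such pairs cannot be told apart.

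**Figure D1:**
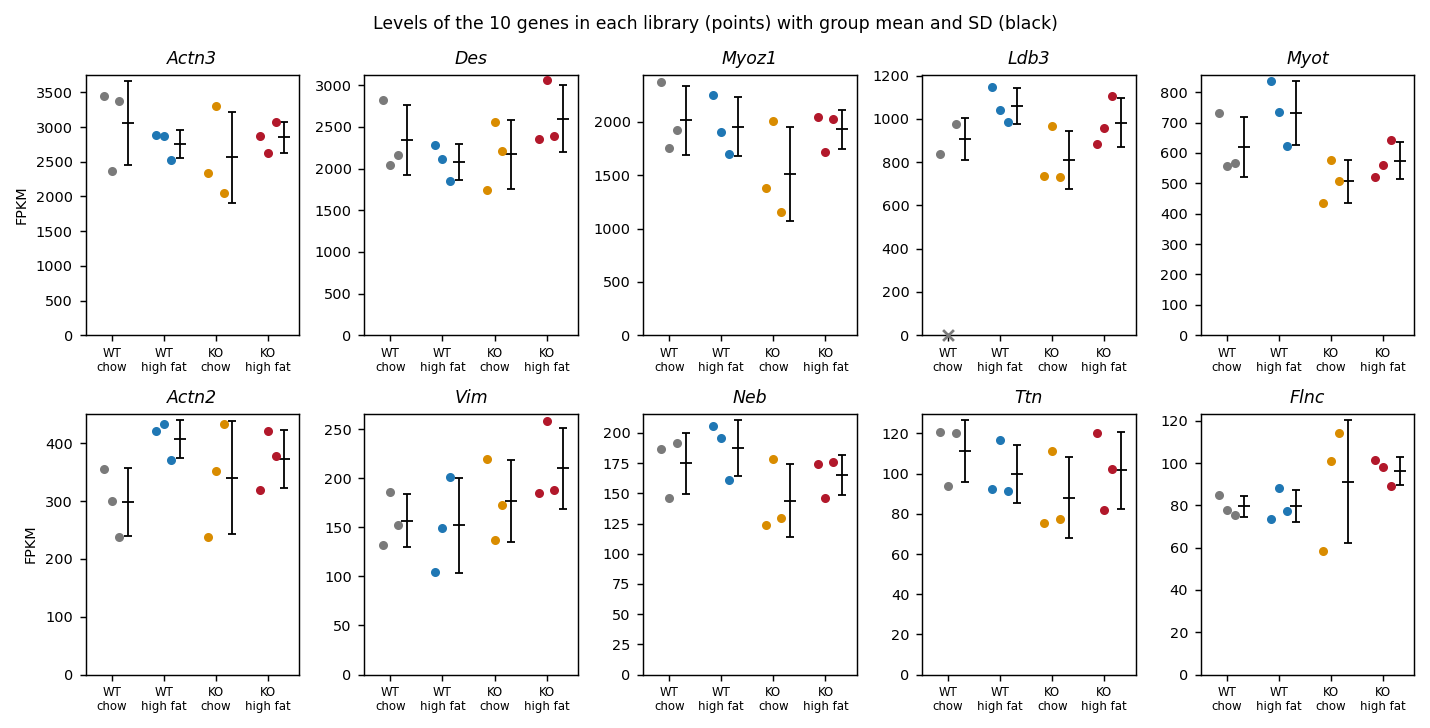
FPKM (vertical axis, starting at 0) of each of the 10 genes in the 4 groups; each point is 1 library and the black bar gives the group mean and SD. Most groups overlap in each panel, KO chow libraries reach lowest for Myoz1 (1152 FPKM) and Actn3 (2043 FPKM), and the cross marks the Ldb3 value listed at 0, left out of its mean.

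Desmin, the muscle intermediate filament protein, is encoded by Des on chromosome 1 (75360329 to 75368579, plus strand, 9 exons, GRCm38). Its levels were 2823, 2040 and 2162 FPKM in WT mice on chow and 2285, 2112 and 1854 on the high fat diet. KO mice had 1738, 2563 and 2207 FPKM on chow and 2351, 3062 and 2386 on the high fat diet. On the high fat diet all 3 KO libraries were above all 3 WT libraries, while on chow the genotypes overlapped. The log2 fold change of KO over WT on the high fat diet was 0.31 ± 0.18 (SE, n = 3 and 3), with an adjusted p of 0.412 in limma, which does not pass the threshold of 0.05. Without KO-highfat 2 it was 0.19. Over both diets the genotype difference was 0.10 with a 95% interval of -0.18 to 0.38. That value was 0.26 (adjusted p 0.0899 in limma) after quantile normalization, and leaving out 1 library at a time gave 0.0352 (KO-chow 2) to 0.175 (KO-chow 1). Summed markers of other cell types also separated the genotypes on the high fat diet. KO against WT libraries had 1753 to 2216 against 590 to 1702 FPKM for adipocyte markers, 83.4 to 174 against 22.3 to 65.2 for macrophage, 71.9 to 180 against 244 to 422 for tendon and 83.3 to 106 against 119 to 162 for smooth muscle. Their part in the Des values, and in those of Flnc given further on, was not tested. The diet difference over both genotypes was 0.05 with an interval of -0.22 to 0.33.

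Vimentin, the intermediate filament of fibroblasts, endothelium, immune cells and regenerating fibres, is encoded by Vim on chromosome 2 (13573927 to 13582826, plus strand, 9 exons). WT mice had 132, 186 and 152 FPKM on chow and 105, 149 and 201 on the high fat diet. In KO mice the values were 220, 137 and 173 on chow and 185, 258 and 188 on the high fat diet. The highest library was KO-highfat 2 and the lowest WT-highfat 1, and the genotypes overlapped on either diet. Among the 10 genes Vim had the largest genotype difference over both diets, a log2 fold change of 0.33 ± 0.17 (SE, n = 6 and 6) with a 95% interval of -0.06 to 0.71 and an adjusted p of 0.248 in limma. On the high fat diet it was 0.50 ± 0.25 (SE, n = 3 and 3), adjusted p 0.341. Without WT-highfat 1 these were 0.21 and 0.26, and the Vim difference over both diets was then no longer the largest, since that of Myot was -0.26. KO-highfat 2 also had the highest summed macrophage level (6 markers, 174 FPKM) and fibroblast level (7 markers, 1350 FPKM) of the 12 libraries, and WT-highfat 1 the lowest macrophage level, 22.3 FPKM. KO-chow 1 had 220 FPKM of Vim with sums of 135 FPKM for macrophage and 1104 for fibroblast markers. WT-highfat 3 had the third highest Vim with sums of 57.7 FPKM for macrophage and 993 for fibroblast markers. KO-chow 2 had 137 FPKM of Vim with sums of 101 and 892. Summed macrophage markers lay between 22.3 and 86.7 FPKM in WT and between 83.4 and 174 in KO libraries, and none of the 6 was listed at 0 in any library. In the adipocyte list all 6 markers were above 0 for genotype over both diets, with a median log2 fold change of 1.995, and 0 passed. All 6 macrophage markers were above 0 in the genotype comparison over both diets, and 1 of them, Emr1 (the macrophage surface receptor F4/80), passed the test at 0.89 on the log2 scale (adjusted p 0.0411 in limma). In the same comparison all 7 fibroblast markers were above 0, with a median of 0.33. All 6 endothelial markers (median -0.16) and all 4 smooth muscle markers (median -0.27) were below 0. Of these 3 lists 0 markers passed, and 44.3% of all genes were above 0. The part of these cells in the Vim values was not tested. In bulk tissue, fewer cells of a type and less RNA per cell cannot be told apart.

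The ratio of Des to Vim sets the fibre's own filament against the mesenchymal one. It was 21.4, 10.95 and 14.2 in WT mice on chow, 21.8, 14.1 and 9.20 in WT mice on the high fat diet, 7.90, 18.7 and 12.7 in KO mice on chow, and 12.7, 11.9 and 12.7 in KO mice on the high fat diet. The group means, 15.5 ± 5.32, 15.05 ± 6.35, 13.1 ± 5.39 and 12.4 ± 0.482 (SD, n = 3 each), differ by less than the SD within 3 of the groups. KO mice on the high fat diet had the narrowest spread, and the ratio was described without a test.

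The α-actinins crosslink actin at the Z-disc, with Actn2 in all fibres and Actn3 in fast ones. Actn2 lies on chromosome 13 (12269426 to 12340760, minus strand, 21 exons) and Actn3 on chromosome 19 (4861216 to 4877909, minus strand, 21 exons). Levels of Actn2 were 356, 301 and 238 FPKM in WT mice on chow and 421, 433 and 371 on the high fat diet. The 3 high fat libraries were all above the 3 chow libraries. In KO mice Actn2 had 237, 353 and 433 FPKM on chow and 320, 421 and 379 on the high fat diet, and these groups overlapped. The WT diet difference was the largest diet effect of the 10 genes, a log2 fold change of 0.47 ± 0.21 (SE, n = 3 and 3) with p 0.0498 unadjusted and 0.613 adjusted in limma. Over both genotypes it was 0.32 with a 95% interval of -0.01 to 0.65, and over both diets the genotype difference was 0.02, from -0.31 to 0.35.

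Levels of Actn3 were 3442, 2361 and 3382 FPKM in WT mice on chow, 2883, 2872 and 2520 in WT mice on the high fat diet, 2343, 3303 and 2043 in KO mice on chow, and 2878, 2621 and 3069 in KO mice on the high fat diet. Each chow group held 1 library far from its other 2, and the groups overlapped in every comparison. Genotype over both diets gave a log2 fold change of -0.11 (95% interval -0.40 to 0.19) and diet over both genotypes 0.03 (-0.27 to 0.32).

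Per library, Actn3 was 4.72 to 14.2 times as abundant as Actn2. The ratio was 9.66, 7.85 and 14.2 in WT mice on chow and 6.85, 6.64 and 6.79 in WT mice on the high fat diet, so that the WT diets did not overlap. KO mice had 9.88, 9.37 and 4.72 on chow and 8.99, 6.23 and 8.10 on the high fat diet, which did. Means were 10.6 ± 3.28, 6.76 ± 0.110, 7.99 ± 2.84 and 7.77 ± 1.41 (SD, n = 3 each) in that order, and no test was made. Summed slow fibre markers ran from 201 to 2758 FPKM over the 12 libraries. WT-highfat 1, with the lowest sum, had a ratio of 6.85, and WT-chow 3, with the next lowest, 347, had 14.2.

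**Figure D2:**
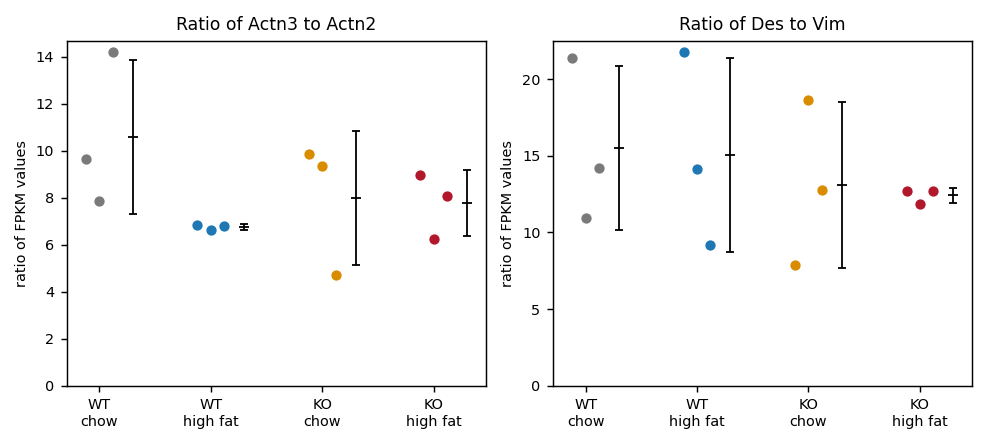
Ratio of FPKM values (vertical axis, starting at 0) of Actn3 to Actn2 on the left and Des to Vim on the right, per library in the 4 groups, with group mean and SD in black. WT libraries on the high fat diet cluster between 6.64 and 6.85 for the actinins, below the 3 WT chow libraries, and KO libraries on the high fat diet between 11.9 and 12.7 for Des to Vim.

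Ldb3, Myot and Myoz1 encode proteins that bind α-actinin at the Z-disc. Ldb3 (also called ZASP or Cypher, chromosome 14, 34526603 to 34588682, minus strand, 14 exons in its longest coding transcript) had 838 and 976 FPKM in the WT chow libraries 2 and 3, with library 1 listed at 0, and 1148, 1042 and 984 in WT mice on the high fat diet. KO mice had 738, 966 and 730 on chow and 883, 959 and 1108 on the high fat diet. In WT mice the 3 high fat libraries were above both chow libraries that gave a value, a log2 fold change of 0.22 that became -0.14 after quantile normalization. Diet over both genotypes was 0.25 ± 0.11 (SE, n = 6 and 5), with p 0.0374 unadjusted and 0.344 adjusted in limma, and it became -0.0214 after quantile normalization and 0.0668 without the 3 lymphoid-rich chow libraries, where each chow group is 1 library. Genotype over both diets was -0.14 (95% interval -0.37 to 0.10).

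Myotilin, encoded by Myot on chromosome 18 (44334074 to 44355724, plus strand, 10 exons), gave the lowest p of the 10 genes. WT mice had 733, 558 and 569 FPKM on chow and 837, 734 and 624.6 on the high fat diet, and KO mice 436, 577 and 507 on chow and 522, 561 and 641 on the high fat diet. In the pooled libraries the WT median was 679 and the KO median 542, with ranges of 558 to 837 and 436 to 641 that overlap. Genotype over both diets gave a log2 fold change of -0.32 ± 0.11 (SE, n = 6 and 6), a 0.803-fold level with a 95% interval of -0.56 to -0.07 on the log2 scale, and p 0.0149 unadjusted and 0.113 adjusted in limma. The difference was of like size on chow (-0.29) and on the high fat diet (-0.34), and its interaction with diet was not detectable (adjusted p 0.979). Without the 3 lymphoid-rich chow libraries it was -0.25 over both diets and -0.16 on chow, where KO-chow 2 stands alone. After quantile normalization it was -0.193 over both diets and -0.188 on the high fat diet. At the same unadjusted level 26.6% of all genes tested passed in this comparison, and 0.871% passed after adjustment.

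Myoz1, which encodes the fast fibre calsarcin that tethers calcineurin to α-actinin (chromosome 14, 20649107 to 20656540, minus strand, 6 exons), had 2378, 1753 and 1919 FPKM in WT mice on chow and 2254, 1907 and 1702 on the high fat diet. In KO mice it had 1376, 2005 and 1152 on chow and 2045, 1719 and 2023 on the high fat diet. KO-chow 3 and KO-chow 1 were the lowest of the 12 libraries, while KO-chow 2 lay within the WT chow range. Genotype on chow gave a log2 fold change of -0.44 ± 0.20 (SE, n = 3 and 3), unadjusted p 0.0476 and adjusted p 0.295 in limma, beside 16.7% of all genes at that unadjusted level. Diet in KO mice gave 0.39 ± 0.20, adjusted p 0.458. Without the 3 lymphoid-rich chow libraries these became -0.0912 and -0.0604, both resting on KO-chow 2 alone in that group. Genotype over both diets was -0.23 (-0.0525 without those libraries) and diet over both genotypes 0.17, neither past the threshold.

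Filamin C, the muscle filamin that crosslinks actin and is recruited to damaged sarcomeres, is encoded by Flnc on chromosome 6 (29433256 to 29461883, plus strand, 48 exons). WT mice had 85.1, 78.0 and 75.5 FPKM on chow and 73.6, 88.2 and 77.3 on the high fat diet. KO mice had 58.6, 101 and 114 on chow and 101, 98.3 and 89.0 on the high fat diet. As with Des, all 3 KO libraries on the high fat diet were above all 3 WT libraries there, the nearest pair being 89.0 and 88.2 FPKM. KO chow mice held both the lowest and the highest library. Genotype on the high fat diet gave a log2 fold change of 0.27 ± 0.20 (SE, n = 3 and 3), adjusted p 0.546 in limma, and over both diets 0.21 (95% interval -0.10 to 0.51). The latter was 0.35 without KO-chow 1 (adjusted p 0.0843 in limma) and 0.11 without KO-chow 3. The spread within KO chow, 91.2 ± 29.0 FPKM (SD, n = 3), was several times that within WT chow, 79.5 ± 4.97.

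Titin and nebulin are the giant proteins that set the length and elasticity of the sarcomere. Ttn (chromosome 2, 76703980 to 76982547, minus strand, 347 exons) had 121, 93.7 and 120 FPKM in WT mice on chow, 92.2, 117 and 91.1 in WT mice on the high fat diet, 75.7, 111 and 77.2 in KO mice on chow, and 120, 82.0 and 102 in KO mice on the high fat diet. Neb (chromosome 2, 52136647 to 52378474, minus strand, 157 exons) had 187, 146 and 192, then 205, 196 and 161, then 124, 179 and 129, then 174, 146 and 176 FPKM in the same order of groups. For both genes KO-chow 1 and KO-chow 3 were the lowest libraries and KO-chow 2 lay within the WT chow range. Genotype over both diets gave a log2 fold change of -0.23 for Neb (95% interval -0.49 to 0.02, adjusted p 0.22 in limma) and -0.17 for Ttn (-0.46 to 0.12). On chow Ttn gave -0.35 ± 0.19 (SE, n = 3 and 3), adjusted p 0.344 in limma. Without the 3 lymphoid-rich chow libraries the values over both diets were -0.131 for Neb and -0.0477 for Ttn, and that of Ttn on chow was -0.110, with KO-chow 2 as the only KO chow library.

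None of the 10 genes passed an adjusted p of 0.05 in limma in any of the 7 comparisons. Among all 11945 genes the share that passed was 0.1% for diet in WT mice, 0% for diet in KO mice, 0.0586% for genotype on chow, 0.126% for genotype on the high fat diet, 0% for the interaction, 0.871% for genotype over both diets and 0.0586% for diet over both genotypes. At an unadjusted p under 0.05, 5 of the 70 tests passed. Each was described above, namely Actn2 for diet in WT mice (8.15% of all genes), Ldb3 for diet over both genotypes (14%), Myoz1 for genotype on chow (16.7%), Myot for genotype on the high fat diet (16.3%) and Myot for genotype over both diets (26.6%). For diet in KO mice (11.3% of all genes) and for the interaction (6.26%) the count was 0 of 10. Groups that did not overlap were found for Ldb3 and Actn2 with diet in WT mice, where 13.1% of all genes did not overlap, and for Des and Flnc with genotype on the high fat diet, where the share was 23.8%. The Ldb3 case sets 3 libraries against 2. With genotype taken from GEO's entry in place of the title, the differences of Des and Flnc on the high fat diet became -0.32 and -0.29. For diet in KO mice (16.9% of all genes), genotype on chow (18.4%), genotype over both diets (2.71%) and diet over both genotypes (0.728%), 0 of the 10 genes had groups that did not overlap.

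**Figure D3:**
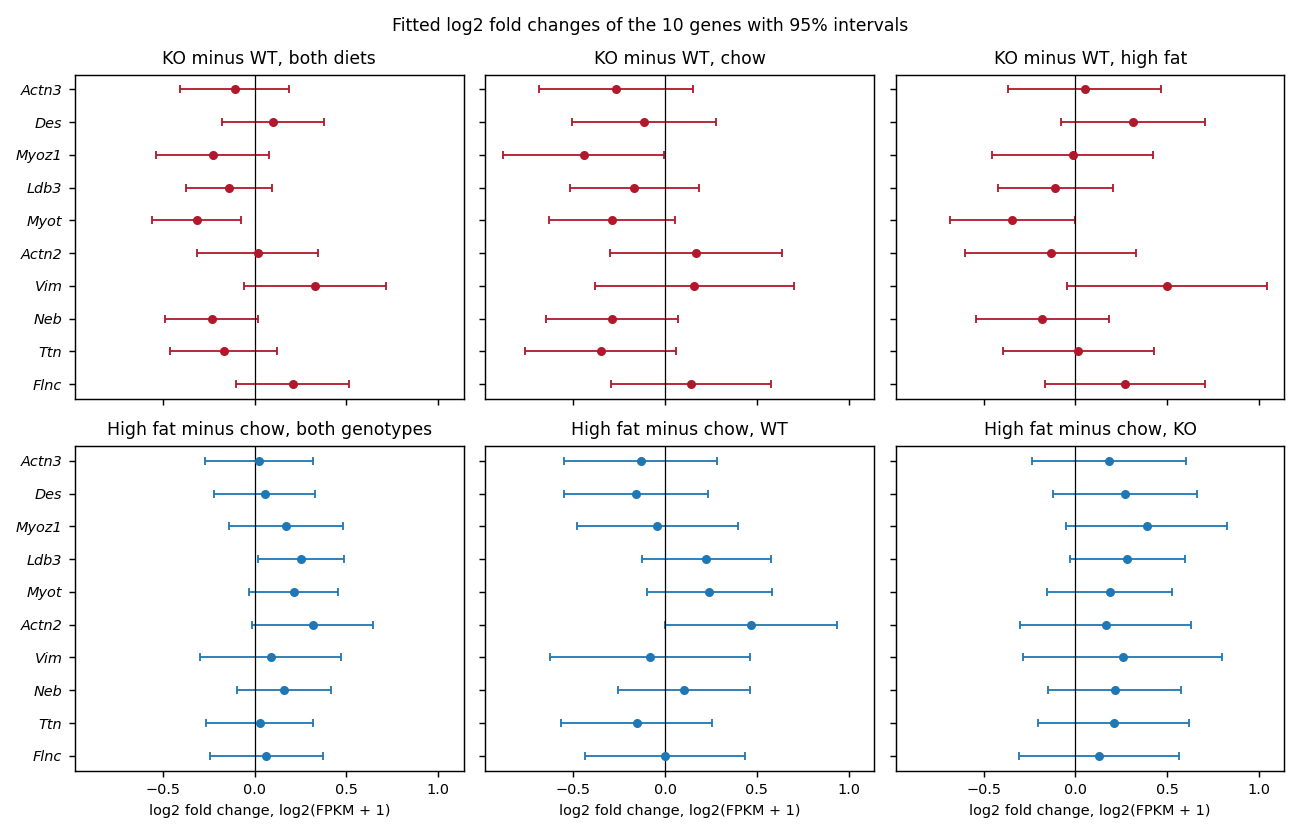
Fitted log2 fold changes on the log2(FPKM + 1) scale (horizontal axis) with 95% intervals for the 10 genes, KO minus WT in the upper row and high fat minus chow in the lower row. Nearly every interval spans 0, the exceptions being Myot over both diets and on the high fat diet, Myoz1 on chow, Ldb3 over both genotypes and Actn2 in WT mice, and no adjusted p passes.

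By sign, the diet differences of the 10 genes lay on one side in KO mice and were split in WT mice. For diet in KO mice all 10 log2 fold changes were above 0 with a median of 0.21, where 56% of all genes were above 0, but the count was 8 after quantile normalization and 4, with a median of -0.04, without the 3 lymphoid-rich chow libraries, where all 10 signs are set against KO-chow 2 alone. In WT mice 5 of 10 were above 0 with a median of -0.02, against 46.4% of all genes, and 2 of 10 after quantile normalization. Over both genotypes the count was 10 of 10 with a median of 0.12 beside 52.6% of all genes, and it dropped to 3 after quantile normalization and to 4 without those libraries. For genotype on chow 3 of 10 were above 0 with a median of -0.22, against 44.9% of all genes, and the median was -0.05 without the 3 libraries and 1 of 10 was above 0 without KO-chow 3. On the high fat diet 5 of 10 were above 0 with a median of 0.00, or 7 of 10 after quantile normalization. Over both diets 4 of 10 were above 0 with a median of -0.12, or 0.01 after quantile normalization, where all genes gave 47.2% on the high fat diet and 44.3% over both diets. The high fat count was 3 of 10 without KO-highfat 3 or without WT-highfat 3. The interaction had 8 of 10 above 0 with a median of 0.22 (55.5% of all genes), 5 of 10 without the 3 libraries, and adjusted p values of 0.885 to 0.979 for the 10 genes in limma. The comparisons share libraries, so these counts are not independent of each other.

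KO-chow 1 was among the 2 lowest libraries for 9 of the 10 genes, and KO-chow 3 for 6. Their median deviation from each gene's own mean was -0.39 and -0.30 on the log2 scale. The third library of that group, KO-chow 2, deviated by 0.12. Vim was the exception in KO-chow 1, at 0.38 above its mean. KO-chow 3 was the highest of the 12 libraries for Flnc and Actn2, at 0.41 and 0.31 above their means. Both low libraries are among the 3 with raised lymphoid markers, and their summed adipocyte markers were 4403 and 3980 FPKM, where the other 10 libraries had 590 to 2216. WT-chow 2, with a lymphoid sum of 78.1 and an adipocyte sum of 2121 FPKM, had 9 of the 10 genes below their means, by a median of -0.14. The part of lymphoid and fat tissue in these values was not tested.

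**Figure D4:**
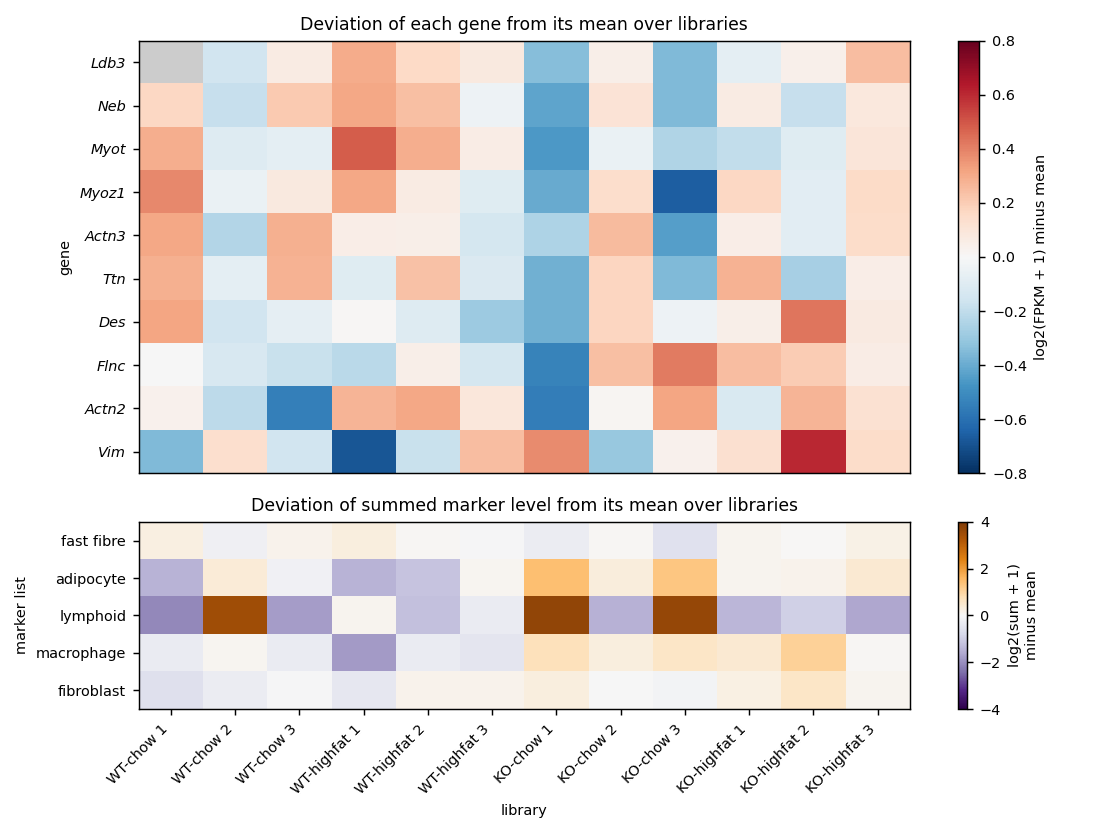
Upper panel, deviation of log2(FPKM + 1) from each gene's mean over libraries (colour scale, red above and blue below) for the 10 genes in the 12 libraries, with the listed zero of Ldb3 in grey. Lower panel, the same for log2 of summed marker levels; KO-chow 1 and KO-chow 3 are blue for 9 and 7 of the 10 genes and have the highest adipocyte sums.

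Correlations across libraries are given as a description in which all points share the same 12 libraries, with group differences left in. The sets named here follow the pattern of these same correlations, so high values within a set carry no support of their own. Ldb3, Ttn, Neb, Myot, Actn3 and Myoz1 varied together, with Pearson r from 0.43 to 0.87 (median 0.81) over their 15 pairs, the highest being Ldb3 with Myot over 11 libraries. Des, Flnc and Actn2 correlated with each other at 0.44 to 0.61. These sets were not separate, since Des gave 0.47 with Actn3 and 0.45 with Myoz1, and Actn2 gave 0.55 with Myot. Vim ran the other way from the first 6, at -0.73 to -0.46, lowest with Neb. The genes most like each of the 10 over all genes tested included other muscle genes for the fast fibre pair. Myoz1 was closest to Tnni2 (fast troponin I, 0.98), Tmod4 (0.97) and the muscle creatine kinase Ckm (0.97), and Actn3 to Bcas3 (0.97) and the muscle glycogen phosphorylase Pygm (0.95). Des was closest to Smpx, a small muscle protein (0.95), Flnc to the actin-binding Xirp2 (0.94), and Vim to Gm7609 (0.95), Chst12 and S100a11 (0.94 each). Ldb3 was closest to Gabarapl2 (0.98, 11 libraries), Ttn to Rragd (0.98), Neb to Kif1c (0.98), Myot to Mrpl1 (0.98) and Actn2 to 1700021C14Rik (0.90).

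Other genes of the same structures gave no call either. Of 19 other Z-disc genes, 0 passed in any comparison. For genotype over both diets 8 were above 0 and 11 below, with a median of -0.04, beside 44.3% of all genes above 0. Xirp1, an actin-binding repair protein, had the lowest p among them, with a median of 25.7 FPKM in WT (22.9 to 34.0) and 47.6 in KO libraries (26.4 to 70.6), and a log2 fold change of 0.74 ± 0.20 (SE, n = 6 and 6, adjusted p 0.0708 in limma). Nexn, an actin-binding Z-disc protein, had medians of 117 in WT and 85.2 FPKM in KO libraries (log2 fold change -0.36, adjusted p 0.132). For diet over both genotypes 16 of the 19 were above 0 with a median of 0.15. Tcap, the titin cap, had medians of 3261 FPKM on chow and 4096 on the high fat diet (0.39, adjusted p 0.206 in limma), and Synpo2l, another Z-disc actin binder, 58.0 and 67.1 (0.27, adjusted p 0.202).

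Of 10 other intermediate filament genes 8 were tested and 0 passed. Nes encodes nestin, the partner filament of vimentin and desmin in regenerating fibres and at the neuromuscular junction. Its 6 KO libraries, 6.84 to 17.0 FPKM, were all above its 6 WT libraries, 5.21 to 6.34, as for 2.71% of all genes. The log2 fold change was 0.80 ± 0.19 (SE, n = 6 and 6) with an adjusted p of 0.0594 in limma. Lmna, the nuclear lamin A gene, had 39.1 to 46.8 FPKM in WT and 43.9 to 69.0 in KO libraries (0.30, adjusted p 0.0856 in limma). For diet over both genotypes the lowest p values were those of Lmnb2 (-0.14, adjusted p 0.388) and Plec, the plectin that links desmin to the Z-disc (0.17, adjusted p 0.434). Krt18, an epithelial keratin named after its values were seen, lay at 0.0787 to 0.264 FPKM in WT and 0.469 to 8.79 in KO libraries (1.29). Of the regenerating fibre markers, Myh3, the embryonic myosin, was 0.235 to 1.38 FPKM in WT and 1.74 to 10.1 in KO libraries. Krt18 and Myh3 passed the filter on low values only through their KO libraries, so no p-value is given for them. Myog, myogenin, had 4.14 to 11.98 FPKM in WT and 9.39 to 24.2 in KO libraries (adjusted p 0.0626 in limma). Myod1, another myogenic factor, had 25.8 to 36.5 FPKM in WT and 18.1 to 28.5 in KO libraries (adjusted p 0.0993 in limma). The 5 markers of that list summed to 60.7 to 80.1 FPKM in WT and 53.6 to 85.4 in KO libraries, and their part in the values of Nes and Vim was not tested.

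Among 4 other actinins and filamins 0 passed. Actn4, a non-muscle α-actinin, had medians of 22.8 FPKM in WT and 26.7 in KO libraries (log2 fold change 0.23, adjusted p 0.154 in limma). Of 11 genes listed for the thin filament end and the M-band, a list that also holds myosin binding proteins of the thick filament, 0 passed. Mybpc1, slow myosin binding protein C, lay at 204 to 337 FPKM on chow and 280 to 870 on the high fat diet (0.68, adjusted p 0.18 in limma). In KO mice its diets overlapped, at 256 to 325 against 280 to 387 FPKM. In WT mice they did not, at 204 to 337 against 498 to 870, as for 13.1% of all genes. The WT log2 fold change was 1.15 (adjusted p 0.109 in limma). Over both genotypes Lmod2, a thin filament leiomodin, lay at 26.9 to 61.7 FPKM on chow and 64.2 to 110 on the high fat diet. These did not overlap (0.67, adjusted p 0.252 in limma), beside 0.728% of all genes that did not overlap between diets. Myom3, an M-band myomesin, had medians of 7.43 FPKM in WT and 15.04 in KO libraries (0.86, adjusted p 0.116 in limma). Tendon markers stood apart between the diets in WT mice, where 5 genes summed to 38.2 to 100 FPKM on chow and 244 to 422 on the high fat diet, and so did Myh1, a fast myosin, at 475 to 677 against 752 to 1393, and Mb, myoglobin, at 2197 to 3186 against 3562 to 6173. The 4 smooth muscle markers summed to 83.4 to 115 against 119 to 162 FPKM. Myh1 and Mb did not stand for their lists. For diet in WT mice 4 of the 6 muscle fibre markers tested were above 0 and 2 below, with a median of 0.12. Of the 7 fast fibre markers tested 4 were above 0 and 3 below, with a median of 0.04, beside 46.4% of all genes above 0. The part of all of these in the Actn2 and Ldb3 values of WT mice was not tested.

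**Figure D5:**
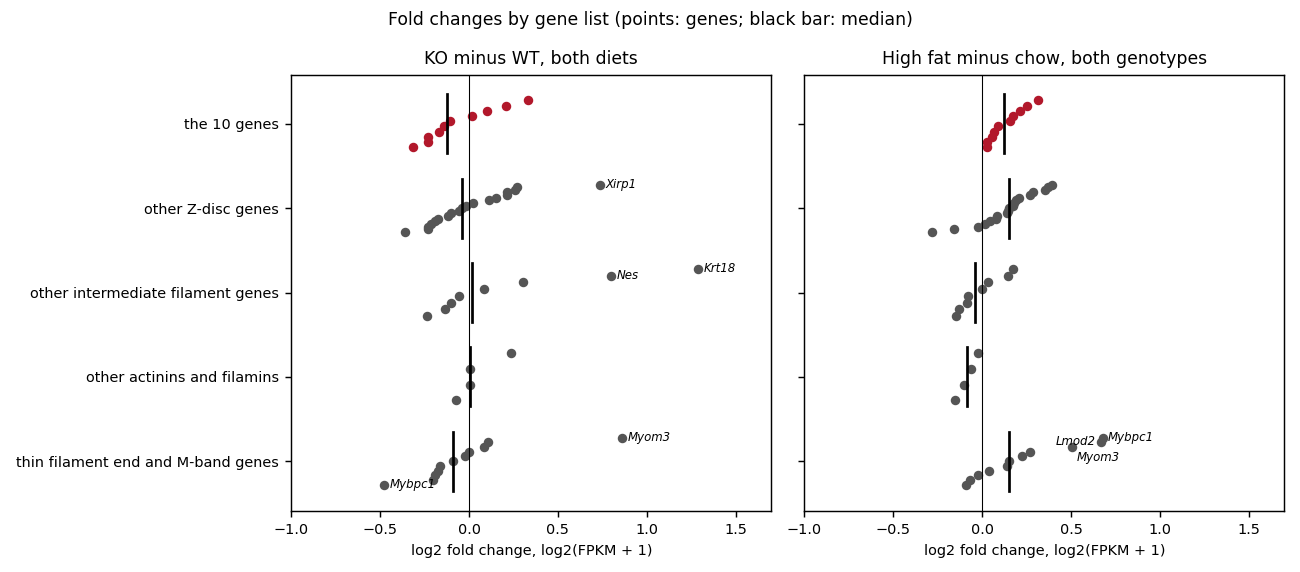
Fitted log2 fold changes (horizontal axis, log2(FPKM + 1) scale) of the 10 genes in red and of 4 related gene lists in grey, KO minus WT over both diets on the left and high fat minus chow over both genotypes on the right, with 1 point per gene and the list median as a black bar. The 10 genes lie between -0.32 and 0.33 on the left and between 0.03 and 0.32 on the right, inside the span of the other Z-disc genes, and Xirp1, Nes, Krt18 and Myom3 stand furthest to the right for genotype.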

How the data were processed

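RNA-seq of hind limb muscle from 12 mice was used. The authors sequenced TruSeq RNA libraries, which do not mark strand, on a HiSeq2000 with paired-end reads. The deposited values are 1 FPKM value per gene symbol and library, a unit read from the values themselves. The submitters' processing notes name TopHat2 2.0.8b, Cuffdiff 2.1.1 and mm10, without their roles. The annotation and filters are not given in the sources used here. Depth in reads is unknown, which limits precision for low genes most. The total of KO-chow 3 is far above the others through 1 extreme entry, that of Mir324, and values were used as deposited without rescaling.

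Samples were grouped by title. The 10 genes and all gene lists were chosen with earlier results of these data known. Repeated symbols were reduced to their highest row by mean. Genes with at least 1 FPKM in at least 3 samples (11945) were taken to log2(FPKM + 1), and fold changes are on that scale. Zeros in genes with a median of at least 10 FPKM were set missing (19 values in 9 genes). limma 3.58.1 in R 4.3.3 fitted 4 group means with an intensity trend in the variance, with Benjamini-Hochberg adjustment over all genes and a threshold of 0.05. The p-values set each difference against the variation between mice within the groups, moderated over all genes tested. Named genes are the 10, and in each related list those past the threshold and the 2 with the lowest p for genotype over both diets and for diet over both genotypes, plus, for each of the 10 genes, those most like it by Pearson correlation, of which the first or the first few are given. 1 gene chosen by this rule is not reported here. Single marker genes were named after their values were seen. The 95% intervals are those of the fitted differences. Positions are from GENCODE M21 on GRCm38, the same build as mm10. Alternatives were a pseudocount of 0.1, no filter, zeros kept, only the groups compared, a block for the replicate number, other scalings, genotype by label, robust moderation and each library left out. Leaving out the 3 lymphoid-rich chow libraries, and the counts by sign under all alternatives, were added after the data were seen. Python 3.11.15, NumPy 2.4.6, pandas 2.3.3 and Matplotlib 3.10.9 were used for the rest.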

Additional observations from a re-analysis of the deposited data

How the results depend on the processing

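None of the 10 genes passed the threshold under any alternative, over 151 counts recomputed under 22 settings, and the lowest adjusted p in limma was 0.0584, for Myot with genotype over both diets without KO-chow replicate 2. Signs were less stable. They were counted for 31 fold changes, which include all those over both diets or both genotypes. The rest were those with an unadjusted p under 0.1 in limma or with groups that did not overlap. Of these 31, 12 changed sign with genotype taken from the genotype label and 8 without the 3 lymphoid-rich chow libraries. Under quantile normalization 9 changed sign, and 1 did with listed zeros kept. None changed sign with a pseudocount of 0.1, no filter, size factors, robust moderation or the replicate block. With only the groups compared, 11 of the fold changes could be refitted and 0 changed sign. The cause was not tested, except that the label puts libraries with and without Cryab transcript into 1 group.

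With genotype by label, the log2 fold changes over both diets became -0.0202 for Actn2, 0.0329 for Actn3, -0.22 for Des, -0.23 for Flnc, 0.11 for Ldb3, 0.0771 for Myot, 0.0438 for Neb and -0.18 for Vim, and on the high fat diet -0.32 for Des, -0.29 for Flnc, 0.38 for Myot and -0.48 for Vim. Without the 3 libraries, with KO-chow 2 as the lone KO chow library, assumed to vary like the other groups, diet over both genotypes became -0.26 for Actn3, -0.12 for Des, -0.0420 for Flnc, -0.0991 for Myoz1, -0.0679 for Neb and -0.21 for Ttn, diet in KO mice -0.0604 for Myoz1, and genotype over both diets 0.00152 for Actn3. Under quantile normalization, diet over both genotypes became -0.0773 for Actn3, -0.0281 for Des, -0.0564 for Flnc, -0.0214 for Ldb3, -0.00400 for Myoz1, -0.0767 for Ttn and -0.0231 for Vim, diet in WT mice -0.14 for Ldb3, and genotype over both diets 0.0407 for Ldb3. With listed zeros kept, the latter was 1.498 for Ldb3, since its 0 then enters the WT mean. Leaving out 1 library at a time gave ranges across 0 for diet over both genotypes, of -0.0631 to 0.124 for Actn3, -0.0206 to 0.126 for Des, -0.0788 to 0.158 for Flnc, -0.0374 to 0.117 for Ttn and -0.0261 to 0.208 for Vim, and of -0.0800 to 0.136 for genotype over both diets in Actn2.

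No pairing by replicate number was seen here, although 3 pairs per comparison cannot exclude it. Same-numbered libraries correlated in their deviations from the group means at -0.83 to 0.42 over the 4 comparisons of 2 groups, and in none did all 3 pairs exceed 0.1. With the replicate block 0 of the 10 genes passed in any comparison, with a lowest adjusted p of 0.178. With 3 mice per group and unknown depth, only the intervals bound the differences.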
